A study of Mus musculus with 5 samples.

Results

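Sort gate and leukocyte identity genes were described as 10 genes, chosen by name from the 46983 genes in each count file. They are Ptprc, Itgam, Adgre1 and Ly6g, which encode the 4 surface proteins of the sort gate, and 6 related leukocyte genes, namely Itgb2, Itgax, Cd68, S100a8, S100a9 and Spi1. Each symbol matched 1 Ensembl identifier. The libraries were RNA-seq of cells labelled as tumour-associated macrophages, sorted as CD45+ CD11B+ Ly6G- F4/80+ from orthotopic EO771 breast tumours, a mouse mammary carcinoma line. In the Treg-ablated group (2 libraries) regulatory T cells had been depleted with diphtheria toxin, given in 2 doses of 50 µg per kg, and cells were sorted at day 4. Control tumours (3 libraries) were left untreated, so a direct effect of the toxin cannot be told apart from that of Treg loss. Both groups were C57/BL6 mice; the labels give no allele, age or number of animals behind a library. The comparison asked how these cells differ once Treg cells are removed. Nothing states that libraries came from separate animals, so each p-value reflects variation among these 5 libraries, which may be technical.

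CD45, the product of Ptprc, is a receptor tyrosine phosphatase carried by nucleated blood cells of all lineages, and it tunes Src-family kinases. CD11b (Itgam) and CD11c (Itgax) are integrin alpha chains that reach the surface only in a pair with the shared beta2 chain CD18 (Itgb2). F4/80 (Adgre1) is an adhesion G protein-coupled receptor used as a marker of mouse macrophages, CD68 is a heavily glycosylated protein of their late endosomes and lysosomes, and PU.1 (Spi1) is the ETS-family transcription factor needed for the myeloid lineage. Ly6G and the calcium-binding proteins S100A8 and S100A9, which together form calprotectin, are abundant in mouse neutrophils.

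Totals ran from 13122668 to 20156835 counts per library. The 10 genes together took only 0.0151% and 0.0147% of the counts of the Treg-ablated libraries, and 0.0156% to 0.0167% of those of the controls. Fibroblast markers were far more abundant than macrophage markers in all 5 libraries: 15 fibroblast genes summed to 20870 and 23220 CPM (counts scaled to a common library size) in Treg-ablated libraries and 22450 to 26360 CPM in controls. The 21 mature macrophage markers summed to 307 and 259 CPM in Treg-ablated libraries and 466 to 489 CPM in controls. Much of the fibroblast sum came from Col3a1 (7467 to 9556 CPM over the 5 libraries) and Fn1 (7850 to 11750 CPM). The 10 epithelial and mammary tumour markers summed to 303 and 260 CPM in Treg-ablated libraries and 294 to 320 CPM in controls. None of these sums is corrected for gene length. The label is therefore kept here as the name of the sort only, and no change is assigned to a cell type. In these bulk samples fewer cells of a type and less RNA per cell cannot be told apart.

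The gene required on every sorted cell, Ptprc (ENSMUSG00000026395, chromosome 1, 138062861 to 138175708, minus strand, GRCm38), had 27.99 and 33.0 CPM in Treg-ablated libraries, against 27.8, 23.4 and 22.1 CPM in control replicates 1 to 3. These values rest on 317 to 468 counts. The groups did not overlap, but the lower Treg-ablated library and the highest control lay side by side. Ptprc ranked between 6331 and 7642 from the top by CPM, out of 20941 to 21860 genes with a count per library. In edgeR's quasi-likelihood test its log2 fold change was 0.32 (SE 0.115) and missed the threshold of 0.05 (adjusted p = 0.0655). Summed T and NK cell markers, which include the CD45 substrate gene Lck, were at 104 and 103 CPM in Treg-ablated libraries and 36.9 to 47.2 CPM in controls. B cell markers were at 25.4 and 40.7 CPM in Treg-ablated libraries and 5.51 to 6.62 CPM in controls. The part of these markers in the Ptprc value was not tested. With Treg-ablated replicate 1 left out Ptprc was called higher (edgeR log2 fold change 0.43, adjusted p = 0.0296), as it was with control replicate 1 left out (0.42, adjusted p = 0.0248).

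Itgam (ENSMUSG00000030786, chromosome 7, 128062640 to 128118491, plus strand), the gene of CD11b, had 16.1 and 12.2 CPM in Treg-ablated libraries, against 19.0, 17.0 and 17.2 CPM in controls. Both Treg-ablated values lay below all controls, though replicate 1 was close to them. The log2 fold change was -0.32 (SE 0.127) and did not pass (edgeR adjusted p = 0.0922). Without Treg-ablated replicate 1 it did (log2 fold change -0.54, adjusted p = 0.0187). The level of Itgam is set in part by the annotation: 3450 of its 5024 exon bases, 68.7%, are also exons of Gm49368 on the same strand (128062683 to 128128160), a readthrough gene that GENCODE M21 lists there. By default featureCounts assigns to neither gene a fragment that fits both equally, and the recorded command sets no option that changes this. Gm49368 itself was nearly uncounted, at 0 and 1 in Treg-ablated libraries and at 0, 3 and 0 in controls. The deposited Itgam counts can therefore lack most fragments from the shared exons, in both groups alike.

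Adgre1 (ENSMUSG00000004730, chromosome 17, 57358686 to 57483529, plus strand), the gene of F4/80, was the most clearly changed of the 10. It had 5.93 and 5.73 CPM in Treg-ablated libraries, from 94 and 76 counts, against 9.74, 9.87 and 9.55 CPM in controls, from 145, 197 and 137 counts. The groups were far apart and the values within each were close, although counts of this size carry counting error of their own. Adgre1 fell 1.67-fold (log2 fold change -0.74, SE 0.125, edgeR adjusted p = 0.00275). Its SE was larger with DESeq2 (0.205) and with a replicate block (0.191). The change was not called when tested against a fold of 1.5, and was called in the other 15 alternatives. Adgre4, Adgre5 and Adgrg5, relatives of Adgre1, had log2 fold changes of -0.01, 0.19 and 0.55 and did not pass (edgeR adjusted p = 0.983, 0.357 and 0.108). Adgre4 had only 9 to 24 counts per library.

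Ly6g (ENSMUSG00000022582, chromosome 15, 75155240 to 75159126, plus strand), the gene of the marker that the gate excluded, was near 0. Its counts were 3 and 1 in Treg-ablated libraries, against 0, 3 and 0 counts in control replicates 1, 2 and 3. A count of 0 allows up to 0.202 CPM in control replicate 1 and 0.209 CPM in control replicate 3. Summed over the libraries, the rate was 0.137 CPM in the Treg-ablated group and 0.061 CPM in the control group, a ratio of 2.25 with an exact 95% interval of 0.381 to 15.4. The interval includes 1, and counts this low give no measure of a difference. Intervals and limits of this kind cover counting error only. Ly6g has close relatives such as Ly6c2, so its counts are uncertain where reads were shared.

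**Figure D1:**
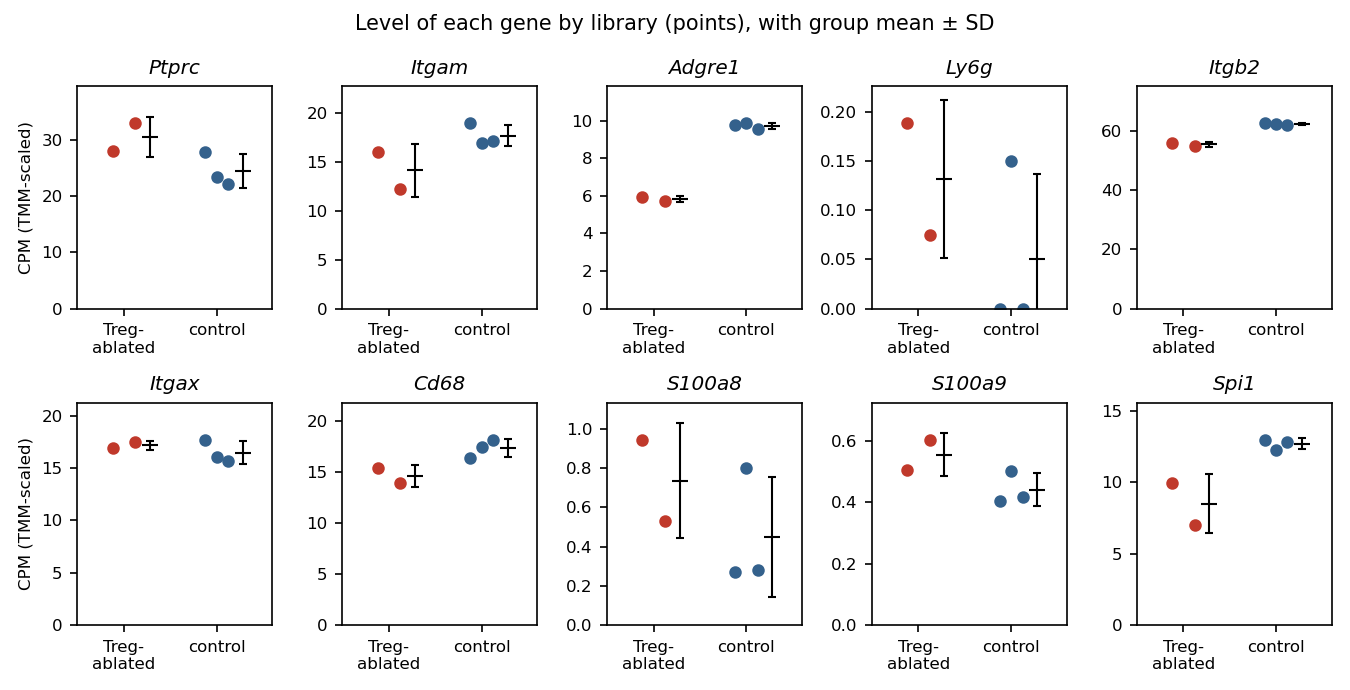
CPM of each gene in the 2 Treg-ablated libraries (red) and the 3 control libraries (blue), with the group mean ± SD beside them and a vertical axis of its own per gene. Adgre1 and Spi1 lie lower in the Treg-ablated libraries, Itgax overlaps, and Ly6g stays below 0.2 CPM.

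The integrin beta chain gene Itgb2 (ENSMUSG00000000290, chromosome 10, 77530252 to 77565708, plus strand) was the most abundant of the 10. It had 55.9 and 54.9 CPM in Treg-ablated libraries, against 62.6, 62.5 and 61.9 CPM in controls. The groups did not overlap and their spread was small, but the difference was too. Itgb2 had a log2 fold change of -0.17 (SE 0.067) and did not pass (edgeR adjusted p = 0.0869).

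Itgax (ENSMUSG00000030789, chromosome 7, 128129547 to 128150657, plus strand), the gene of CD11c, which dendritic cells carry at high level, had 16.9 and 17.5 CPM in Treg-ablated libraries, against 17.7, 16.03 and 15.7 CPM in controls. Control replicate 1 was above both Treg-ablated libraries. The log2 fold change of 0.06 (SE 0.101) was smaller than its error (edgeR adjusted p = 0.688). Of the other alpha chains of the family, Itgal, which encodes CD11a of lymphocytes and other leukocytes, had 14.1 and 17.0 CPM in Treg-ablated libraries and 10.2 to 13.03 CPM in controls (log2 fold change 0.39, edgeR adjusted p = 0.0503). Itgad was at most 0.151 CPM and was not tested. So 0 of the 4 beta2 integrin genes tested passed with edgeR, at unadjusted p of 0.0287 for Itgb2, 0.0312 for Itgam, 0.013 for Itgal and 0.553 for Itgax. DESeq2 also called 0. Under 7 alternatives 1 of these genes was called higher, among them those without Treg-ablated replicate 1 and without control replicate 1. Under 3 alternatives 1 was called lower, namely without Treg-ablated replicate 1, with the loosest filter and with the gene length offset.

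Cd68 (ENSMUSG00000018774, chromosome 11, 69664213 to 69666153, minus strand) had 15.4 and 13.9 CPM in Treg-ablated libraries, against 16.4, 17.5 and 18.2 CPM in controls. The groups did not overlap, with a gap between them no wider than that between control replicates. Cd68 had a log2 fold change of -0.24 (SE 0.104) and did not pass (edgeR adjusted p = 0.11). Among the other 7 lysosome membrane genes, Laptm5, which is restricted to blood cells, was lower at 37.7 ± 2.32 CPM in Treg-ablated and 51.5 ± 2.82 CPM in control libraries (SD, n = 2 and 3; edgeR adjusted p = 0.00359). Lamp2, a major structural protein of lysosomes in most cells, was higher (log2 fold change 0.21, edgeR adjusted p = 0.0373), but was not called without either Treg-ablated library, without control replicate 1 or 2, with a replicate block, with a GC correction or with the loosest filter. The other 5 did not pass, where 13.5% of all genes tested were higher and 12.3% lower.

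S100a8 (ENSMUSG00000056054, chromosome 3, 90668978 to 90670035, plus strand) and S100a9 (ENSMUSG00000056071, chromosome 3, 90692632 to 90695721, minus strand) were both under 1 CPM. S100a8 had 15 and 7 counts in Treg-ablated libraries, against 4, 16 and 4 in controls. By CPM, control replicate 2 lay between the Treg-ablated libraries. S100a8 just reached the low-count filter and showed no called difference (edgeR log2 fold change 0.63, SE 0.53, adjusted p = 0.41). S100a9 had 8 and 8 counts in Treg-ablated libraries, against 6, 10 and 6 in controls, and was below the filter. Its summed rate was 0.549 CPM in the Treg-ablated and 0.447 CPM in the control group, a ratio of 1.23 with an exact 95% interval of 0.603 to 2.45, so a difference was not detectable.

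Most other neutrophil genes were also at or near 0. Of 18 listed markers only 7 could be tested, and the median per library was 0.244 to 0.49 CPM. The granule genes Camp, Elane and Mpo lay between 0 and 0.25 CPM in the 5 libraries. Other markers of the list were not near 0: Retnlg had 4.03 to 7.69 CPM and Csf3r 1.36 to 2.25 CPM over the 5 libraries. Retnlg, Mmp9 and Lcn2 were higher, and 0 were lower with edgeR, at an unadjusted p under 0.05 or with DESeq2. With edgeR 13.5% of all genes tested were higher and 12.3% lower. Mmp9, a gelatinase that other cells also make, had 25.1 ± 0.275 CPM in Treg-ablated and 18.1 ± 3.24 CPM in control libraries (SD, n = 2 and 3; edgeR adjusted p = 0.028). Without Treg-ablated replicate 1 or without control replicate 1, 0 were called higher, and without control replicate 2, or with DESeq2, 1 was. Other S100 genes were abundant: S100a6 had 1405 to 2080 CPM over the 5 libraries. Of the receptor genes for S100A8 and S100A9, Tlr4 was lower and Ly96, which encodes its co-receptor MD-2, and Ager were higher. Ly96 had 6.83 ± 1.13 CPM in Treg-ablated and 3.77 ± 0.464 CPM in control libraries (SD, n = 2 and 3; edgeR adjusted p = 0.00565). Tlr4 was no longer called without control replicate 1 or without control replicate 2, and 1 of the higher genes was left without control replicate 2.

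Spi1 (ENSMUSG00000002111, chromosome 2, 91082390 to 91115756, plus strand), the gene of PU.1, had 9.96 and 7.01 CPM in Treg-ablated libraries, from 158 and 93 counts, against 12.97, 12.3 and 12.8 CPM in controls. The groups did not overlap, and the Treg-ablated libraries differed from each other more than the controls did. Spi1 fell 1.48-fold (log2 fold change -0.56, SE 0.145, edgeR adjusted p = 0.0179). The call ended without Treg-ablated replicate 2 (log2 fold change -0.34, edgeR adjusted p = 0.107), without control replicate 2 (adjusted p = 0.0692) and with a per-library correction for GC content (log2 fold change -0.42, adjusted p = 0.0615).

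Among the 10 genes 8 were tested, of which 2 were lower, Adgre1 and Spi1, and 0 were higher. Over all 14580 genes tested 12.3% were lower and 13.5% were higher. The median log2 fold change was -0.21 over the 8 genes and -0.01 over all genes tested. The ranges of the groups did not overlap for 6 of the 8 genes, 5 lower and 1 higher, while 52.5% of all genes tested did not overlap, 25.6% lower and 26.9% higher. DESeq2 gave the same count of 2 lower and 0 higher. At an unadjusted p under 0.05 in edgeR, 5 of the 8 genes were lower, with Itgam, Itgb2 and Cd68 added, and 1 was higher, Ptprc; of all genes tested 38.8% passed by that measure, 19.1% lower and 19.7% higher.

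**Figure D2:**
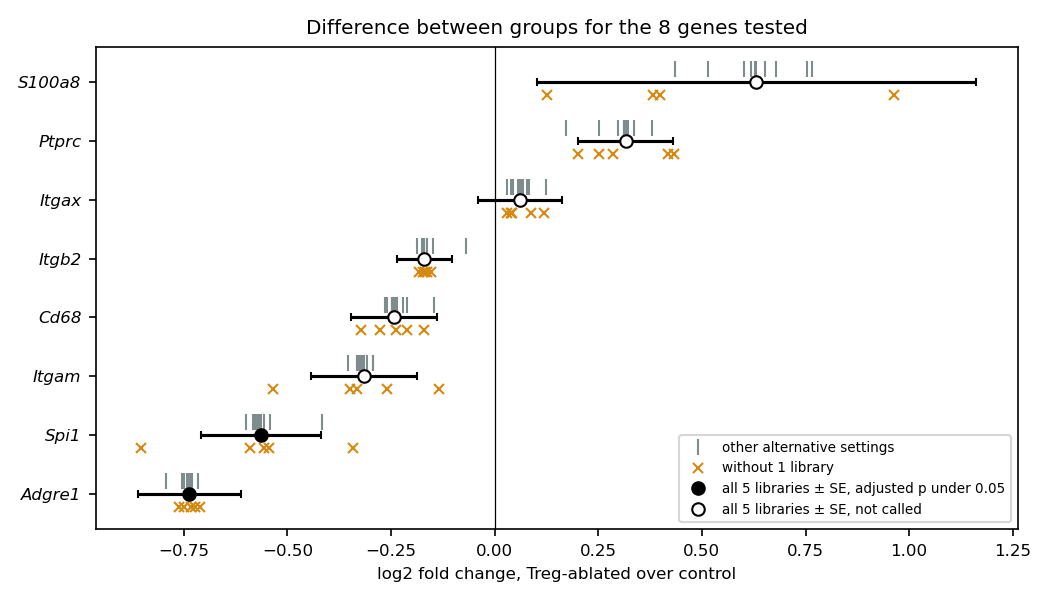
Log2 fold change of Treg-ablated over control for the 8 genes tested, as circles with SE (filled where the adjusted p is under 0.05), with values without 1 library (crosses) and under other settings (ticks). Adgre1 keeps to a narrow range between -0.79 and -0.71, whereas Spi1 runs from -0.85 to -0.34.

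Because counts grow with transcript length, levels of different genes were compared per kilobase. Per kilobase of the exon length in the files, Itgb2 was highest at 18.0 to 20.5 CPM per kb over the 5 libraries, followed by Cd68 at 11.04 to 14.5 CPM per kb, and their ranges did not overlap. Spi1, Itgax, Itgam, Adgre1 and Ptprc followed in this order of mean level per kb, and in this group each gene's range overlapped that of the next. S100a9 and S100a8 overlapped each other below them, and Ly6g was last. On this scale Itgb2 lay at percentile 82.4 to 84.4 of genes with a count, Adgre1 at percentile 47.5 to 55.3 and Ptprc at percentile 43.2 to 47.7.

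The low place of Ptprc depends on the length used. Its summed exon length in the files is 18313 bases, 3.61 times the 5074 bases of its longest protein-coding transcript in GENCODE M21, since exons of all annotated transcripts are added up. This ratio was 1.43 or less for each of the other 9 genes. Per kilobase of the longest coding transcript, a scale chosen after this was seen, Ptprc had 5.52 and 6.497 CPM per kb in Treg-ablated libraries and 4.35 to 5.48 CPM per kb in controls. That put its mean above those of Itgax, Itgam and Adgre1, beside Spi1. On the scale of exon length Ptprc had 1.53 and 1.80 CPM per kb in Treg-ablated libraries and 1.21 to 1.52 CPM per kb in controls.

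Itgam moved in the same direction when only its exon bases outside Gm49368 were used. Per kilobase of these 1574 bases it had 10.2 and 7.76 CPM per kb in Treg-ablated libraries and 10.8 to 12.1 CPM per kb in controls, against 2.43 to 3.78 CPM per kb over its whole exon length in the 5 libraries. The higher figure assumes that no fragment touching the shared exons was counted for Itgam. The ratio of Itgam to its partner Itgb2 per kb was 0.175 and 0.135 in Treg-ablated libraries and 0.165 to 0.184 in controls by whole exon length. By unshared exon it was 0.557 and 0.431 in Treg-ablated libraries and 0.527 to 0.589 in controls. The level of CD11b transcript is thus known only within about these bounds, while the fold change between groups uses the same exons on both sides.

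**Figure D3:**
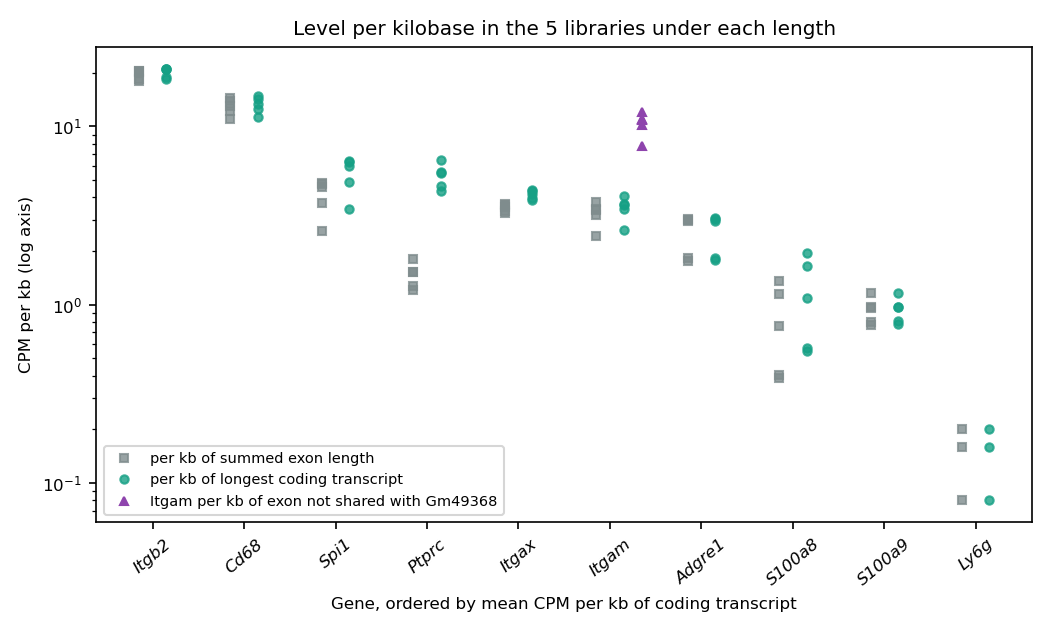
CPM per kilobase on a log axis for each gene in the 5 libraries, by summed exon length (squares), by longest coding transcript (circles) and, for Itgam, by exon not shared with Gm49368 (triangles); libraries at 0 are not drawn. Ptprc rises from below Adgre1 to beside Spi1 with the second length, and Itgam comes close to Cd68 with the third.

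Ratios of genes within a library do not depend on how libraries are scaled. The ratio of Adgre1 to Ptprc per kb of exon was 1.195 and 0.982 in Treg-ablated libraries, against 1.98, 2.38 and 2.44 in control replicates 1 to 3. The groups did not overlap, and the mean log2 ratio was lower by 1.06 in the Treg-ablated group (value -1.06). The ratio of Spi1 to Ptprc was 2.42 and 1.45 in Treg-ablated libraries, against 3.17, 3.56 and 3.94 in controls. Cd68 and Itgam relative to Ptprc were also lower in both Treg-ablated libraries than in any control, and Itgax relative to Itgb2 was higher, at 0.192 and 0.203 in Treg-ablated and 0.161 to 0.18 in control libraries. Itgam relative to Itgb2 overlapped between the groups. The ratios of Adgre1, Spi1, Cd68 and Itgam to Ptprc share a denominator. Ptprc itself was higher in both Treg-ablated libraries than in any control, so these ratios are not separate results. Ranges that do not overlap were also common, at 52.5% of all genes tested, and ratios of other genes were not tested. With 2 libraries against 3, a permutation test reaches its smallest value whenever the ranges do not overlap. An exact two-sided permutation test of 2 libraries against 3 cannot give a p under 0.2; 5 of the 6 ratios reached it (adjusted p = 0.24 over the 6), and Itgam to Itgb2 had p = 0.6.

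**Figure D4:**
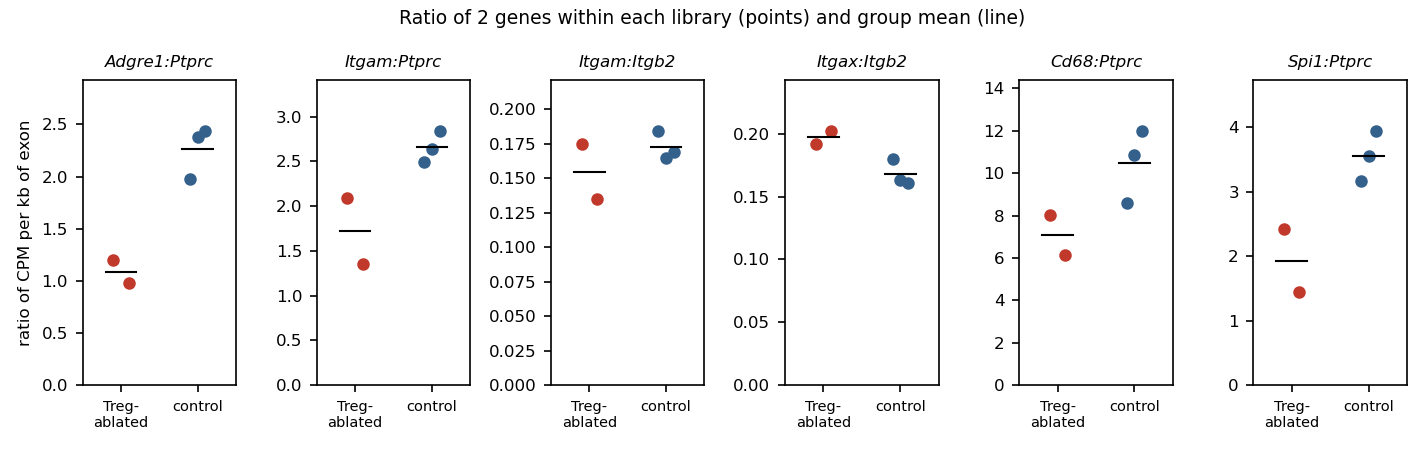
Ratios of CPM per kb of exon within each library, Treg-ablated (red) and control (blue), with the group mean as a line. Adgre1 to Ptprc is 0.982 and 1.195 in the Treg-ablated libraries and 1.98 to 2.44 in the controls.

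Genes of leukocytes in general were called in both directions. Of 25 tested, 6 were higher, 4 were lower and 15 did not pass, where 13.5% of all genes tested were higher and 12.3% lower. Their median log2 fold change was -0.01, the same to 2 decimals as that of all genes tested. Rac2, a small GTPase of blood cells, had 19.2 ± 0.192 CPM in Treg-ablated and 10.9 ± 0.733 CPM in control libraries (SD, n = 2 and 3; edgeR adjusted p = 0.000785). Cytip, a regulator of integrin adhesion in lymphocytes and dendritic cells, was 1.71-fold higher. Laptm5, Vav1, Inpp5d and Nckap1l were lower. Without control replicate 2, 2 were higher and 2 lower; DESeq2 called 2 higher; and 2 were lower without Treg-ablated replicate 2, without control replicate 1 or with the GC correction. The sum of the 26 listed genes was 534 and 523 CPM in Treg-ablated and 507 to 529 CPM in control libraries.

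Among partners of CD45, 3 of 11 tested genes were higher and 3 lower, against 13.5% and 12.3% of all genes tested. The higher ones were Lck and Fyn, Src-family kinases that CD45 activates, and Ptprcap, which encodes a CD45-associated protein of lymphocytes. The log2 fold change was 1.72 for Lck and 0.41 for Fyn, which had 20.2 to 28.8 CPM over the 5 libraries. Lck had 9.03 ± 0.508 CPM in Treg-ablated and 2.69 ± 0.729 CPM in control libraries (SD, n = 2 and 3; edgeR adjusted p = 0.000427). The lower ones were Fgr, a Src-family kinase of myeloid cells, Src, and Csk, the kinase that restrains the family; 1 was lower without Treg-ablated replicate 2 or without control replicate 1, and 0 without control replicate 2. Lyn, a Src-family kinase of B cells and myeloid cells, did not pass (edgeR adjusted p = 0.271).

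Of 11 tested genes for activators, linkers and ligands of beta2 integrins, 2 were higher and 3 lower, where 13.5% of all genes tested were higher and 12.3% lower. The GTPase genes Rap1a and Rap1b were higher, Rap1b at 265 ± 1.26 CPM in Treg-ablated and 200 ± 1.79 CPM in control libraries (SD, n = 2 and 3; edgeR adjusted p = 0.0016). Tln1, which encodes talin that binds the integrin tail, was lower at 530 ± 67.3 CPM in Treg-ablated and 737 ± 33.7 CPM in control libraries (SD, n = 2 and 3; edgeR adjusted p = 0.00394). F11r and Cyth1 were also lower, and 1 of the 3 was called without control replicate 2. Tln1, Rap1a and Rap1b are made by most cell types.

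Mature macrophage markers, among which Adgre1 and Cd68 were listed, were lower in 13 of 18 genes tested and higher in 0 (1 at an unadjusted p under 0.05, and 0 with DESeq2), with a median log2 fold change of -0.78. Among all genes tested the shares were 12.3% lower and 13.5% higher. Csf1r, the receptor gene for the macrophage growth factor CSF-1, fell 2.28-fold and C1qa, a complement C1q subunit gene, 2.18-fold. Mertk, a receptor for uptake of dying cells, had 20.4 CPM in Treg-ablated and 19.7 CPM in control libraries and did not pass (edgeR adjusted p = 0.752). Tested against a fold of 1.5, 4 were lower. There was 1 higher without control replicate 1, with limma-voom and with counts thinned to the smallest library. Of 15 fibroblast markers tested 10 were lower and 1, Dcn, was higher (log2 fold change 0.40, edgeR adjusted p = 0.00276). Col3a1, the fibroblast marker with 7467 to 9556 CPM, did not pass (log2 fold change 0.04, edgeR adjusted p = 0.803). The part of fibroblast markers in the macrophage marker values was not tested. Without control replicate 2, 6 of the fibroblast markers were lower.

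**Figure D5:**
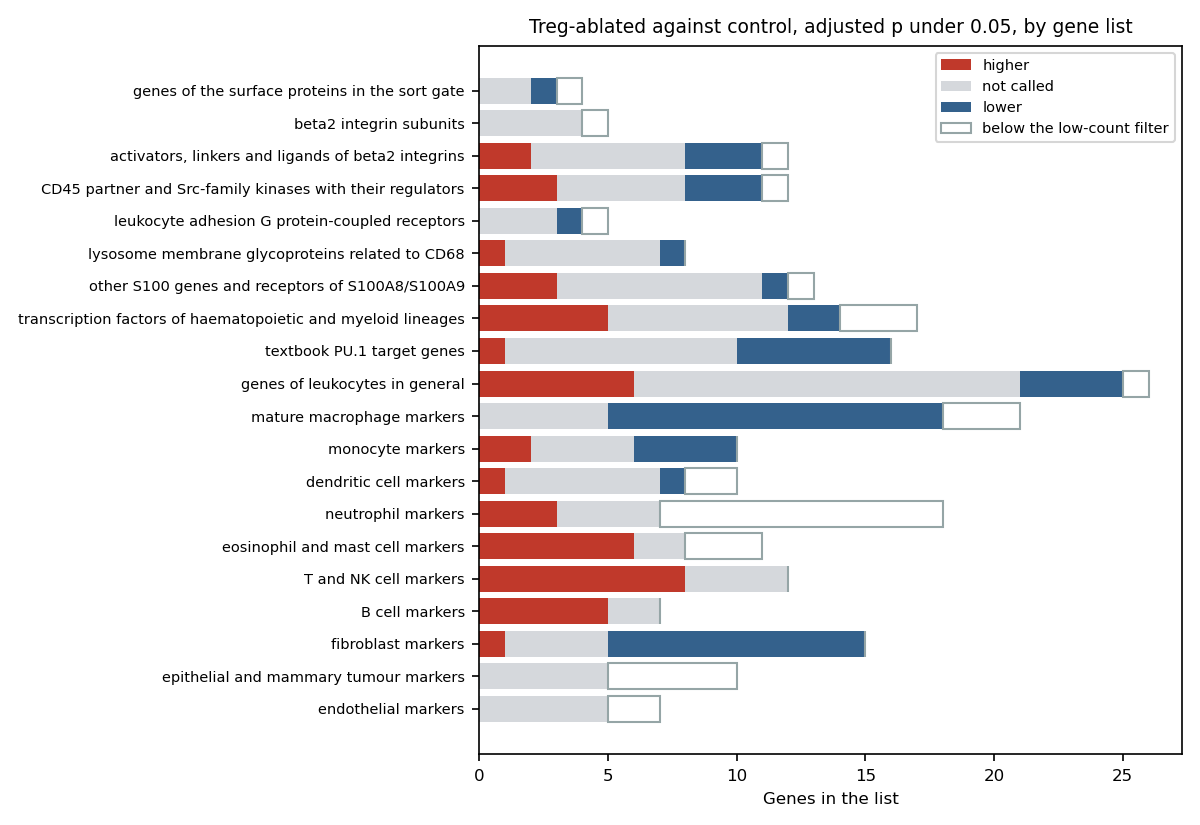
Number of genes higher (red), not called (grey) and lower (blue) in Treg-ablated against control libraries at an edgeR adjusted p under 0.05, for each of the 20 gene lists, with genes below the low-count filter as open bars. The macrophage list holds 13 lower and 0 higher genes, whereas the list of leukocytes in general holds 4 lower and 6 higher.

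The list of textbook PU.1 target genes in myeloid cells, which includes Itgam, Itgb2 and Cd68, had 6 of 16 genes lower and 1 higher, with a median log2 fold change of -0.32. Of all genes tested 12.3% were lower and 13.5% higher. The lower target genes were Csf1r, Cybb, Msr1, Tlr4, Tyrobp and Cd14, and Csf2ra, a subunit gene of the GM-CSF receptor, was higher. Tyrobp, the adaptor of many myeloid receptors, had 17.4 ± 3.38 CPM in Treg-ablated and 24.2 ± 1.15 CPM in control libraries (SD, n = 2 and 3; edgeR adjusted p = 0.0177). There were 3 lower without Treg-ablated replicate 2 and 2 without control replicate 2, and 0 were higher without Treg-ablated replicate 1, without control replicate 2 or 3, or with a replicate block. Lineage factors were called in both directions. Of the 14 haematopoietic and myeloid transcription factor genes tested, 5 were higher (Klf4, Runx1, Irf8, Irf4 and Cebpb) and 2 lower (Spi1 and Cebpa). Cebpa had a log2 fold change of -0.82 (edgeR adjusted p = 0.0293). Klf4 had 72.9 ± 3.61 CPM in Treg-ablated and 44.6 ± 1.42 CPM in control libraries (SD, n = 2 and 3; edgeR adjusted p = 0.000246). Without control replicate 2 the numbers were 3 and 0, 0 were lower without Treg-ablated replicate 2 or with the GC correction, and 1 was lower without control replicate 1.

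Promoter windows are shown for 4 of the genes because PU.1 binds DNA at a core that ETS factors share, and Itgam and Cd68 are textbook PU.1 targets. Windows of 300 bases from RefSeq (GRCm38.p6) were found for 7 of the 10 genes. They reach 250 bases before to 50 after a start given by RefSeq, called the gene start here. The letters GAGGAA, or TTCCTC where they lie on the other strand, are in capitals.
Itgam (chr7:128062390-128062689, plus strand): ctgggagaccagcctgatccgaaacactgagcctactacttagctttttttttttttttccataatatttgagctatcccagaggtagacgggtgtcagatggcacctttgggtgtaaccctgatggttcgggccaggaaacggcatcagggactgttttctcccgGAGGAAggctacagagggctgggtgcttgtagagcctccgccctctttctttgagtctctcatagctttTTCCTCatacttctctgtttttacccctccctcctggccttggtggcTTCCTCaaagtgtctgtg
Cd68 (chr11:69666121-69666420, minus strand): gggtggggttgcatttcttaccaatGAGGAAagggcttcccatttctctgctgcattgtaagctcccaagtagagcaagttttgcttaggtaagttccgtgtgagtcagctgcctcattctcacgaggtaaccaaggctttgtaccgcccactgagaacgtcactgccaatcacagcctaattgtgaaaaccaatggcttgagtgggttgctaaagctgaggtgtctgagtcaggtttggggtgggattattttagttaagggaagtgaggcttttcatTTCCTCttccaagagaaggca
Ptprc (chr1:138175256-138175555, minus strand): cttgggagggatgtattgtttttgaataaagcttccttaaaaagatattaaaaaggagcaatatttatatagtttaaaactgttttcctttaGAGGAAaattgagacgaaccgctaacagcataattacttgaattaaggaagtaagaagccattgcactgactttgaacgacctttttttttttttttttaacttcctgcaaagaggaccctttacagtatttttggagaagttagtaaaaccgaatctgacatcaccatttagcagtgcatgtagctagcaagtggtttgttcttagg
Itgax (chr7:128129300-128129599, plus strand): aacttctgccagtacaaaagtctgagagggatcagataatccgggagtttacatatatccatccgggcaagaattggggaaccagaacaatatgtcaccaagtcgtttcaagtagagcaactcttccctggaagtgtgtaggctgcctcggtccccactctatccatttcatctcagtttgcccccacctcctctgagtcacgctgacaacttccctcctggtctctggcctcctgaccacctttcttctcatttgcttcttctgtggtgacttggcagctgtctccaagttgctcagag
Itgam held 3 matches, beginning 84 and 15 bases before the gene start and 32 bases after its first base. Cd68 held 2, the upstream one 225 bases before the gene start. Ptprc held 1, at 158 bases before the RefSeq start of the more upstream of its 2 windows. In the Ensembl coordinates, which put the start of this minus-strand gene at 138175708, both Ptprc windows lie within the gene. Itgax held 0. Of all 32851 promoter windows 28.3% held GAGGAA on either strand, and 3.2% held the longer GAGGAAGT, which contains it and which is in none of the 4 windows shown. Of the 9 windows of the 7 genes 6 held GAGGAA, those of S100a8 and both of Ly6g included, and the longer GAGGAAGT was in the S100a8 window and in both Ly6g windows. A match of this length is a description of the letters, not a binding site.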

How the data were processed

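RNA of sorted cells from 5 samples was sequenced. The deposited values are whole-number counts of paired-end fragments, not normalized; per the file headers featureCounts 1.6.2 assigned fragments to exons of genes in Ensembl 83 (filtered, GRCm38). The command sets no strand, overlap or multi-mapping option, so overlapping genes and near-identical copies are uncertain. The submitters' processing notes also list Trimmomatic 0.33, Subread 1.6.2, FastQC 0.11.5 and DESeq2 1.16.1. Each file also gives a summed exon length in bases, per the file headers.

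The members, gene lists and tests were chosen with earlier results of these data known. Symbols were joined by Ensembl identifier (46488 of 46983). Genes kept by filterByExpr (14580) entered a quasi-likelihood F test (edgeR 4.0.16, R 4.3.3, TMM scaling, no block), with Benjamini-Hochberg adjustment over all genes tested and a threshold of 0.05. SEs were obtained from the log2 fold change and its F statistic. CPM use TMM-scaled library sizes. Ratios were tested with the exact permutation test of scipy 1.17.1. Simulated counts with known changes served to check the edgeR test. Replicates differed beyond sampling noise (chi-square per degree of freedom 4.19 to 7.9), so none was treated as a duplicate. Named genes are the 10 members and, of each of the 20 lists, up to 3 non-members with the smallest p and 2 with the highest mean CPM per kb, not all of which are printed; other genes (for example Mertk, Csf2ra, Camp, Elane, Mpo, Fgr, F11r, Cyth1, Vav1, Inpp5d, Nckap1l, Msr1, Irf4 and Cebpa) were named after their values were seen.

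The tests were repeated with DESeq2 1.42.0, limma-voom (limma 3.58.1), RLE factors, unscaled library sizes, 2 different filters on low counts, a test against a fold of 1.5, a replicate block, thinning, a GC content offset and leaving out each library; a gene length offset and the coding transcript length were added after seeing the data. Leaving out a Treg-ablated library leaves 1, assumed to vary like the controls.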

Additional observations from a re-analysis of the deposited data

How the results depend on the processing

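The fold changes of the 8 genes tested kept their direction under each of the 11 other settings and 5 left-out libraries in which they could be fitted. Adgre1 lost its call only against a fold of 1.5, where 0 of the genes described were lower and 98 and 23 of all genes were higher and lower, compared with 1971 and 1787. With the GC content offset 1 of the genes was lower. With a filter of 1 count in any library 1 was higher, Ptprc (edgeR adjusted p = 0.0263), and 3 were lower, with Itgam added (adjusted p = 0.0358). With the gene length offset 1 was higher, again Ptprc (adjusted p = 0.00269), and 4 were lower, with Cd68 and Itgb2 added (adjusted p = 0.0419 and 0.0425). Without 1 library each, the genes described numbered 0 to 1 higher and 1 to 3 lower, and all genes 812 to 1687 higher and 554 to 1538 lower, the smallest counts being those without control replicate 2. Without Treg-ablated replicate 1, Itgam passed as lower (log2 fold change -0.54) and Ptprc as higher (0.43), and Ptprc also without control replicate 1 (0.42). The log2 ratio of Itgam to Itgb2 ran from -0.35 to 0.02, turning positive without Treg-ablated replicate 2 (0.017); the cause was not tested. With the replicate block 1296 genes were higher and 1116 lower, and the same number of the genes described, 2, were lower. Deviations of same-numbered libraries from their group means correlated at -0.574 for number 1 and 0.007 for number 2, so the numbers gave no sign of a pairing. The 2 Treg-ablated libraries have mirror-image deviations, so these values are not independent. Differently numbered libraries shared deviations, Treg-ablated replicate 2 with control replicate 1 at 0.574 and Treg-ablated replicate 1 with control replicate 3 at 0.542. The source of these correlations was not tested. Depth limits Ly6g, S100a8 and S100a9, where a count is worth 0.0501 to 0.0754 CPM.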

Other observations

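Ccr7, the receptor that guides mature dendritic cells to lymph nodes, was higher at 9.58 and 8.52 CPM in Treg-ablated libraries and 5.36 to 6.20 CPM in controls (edgeR adjusted p = 0.00578), whereas Cd209a was lower at 1.32 and 1.66 CPM in Treg-ablated and 2.79 to 3.11 CPM in controls (adjusted p = 0.0126). Of the 8 dendritic cell genes tested, Itgax included, 1 was higher and 1 lower, shares near those of all genes tested (13.5% higher and 12.3% lower), and 0 were lower without Treg-ablated replicate 1 or without control replicate 2.

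Markers of other cell types differed as well. T and NK cell markers were higher in 8 of 12 genes tested and B cell markers in 5 of 7, where DESeq2 called 1. For this and the lists below, 13.5% of all genes tested were higher and 12.3% lower with edgeR. Of 8 eosinophil and mast cell genes tested, 6 were higher, namely the mast cell genes Cpa3, Kit, Fcer1a, Mcpt4, Tpsb2 and Cma1. The eosinophil genes Siglecf and Ccr3 did not pass (edgeR adjusted p = 0.212 and 0.241), and Epx, Prg2 and Il5ra were below the low-count filter. The mast cell protease gene Cpa3 had a log2 fold change of 1.17. Of 10 monocyte markers 2 were called higher and 4 lower; leaving out control replicate 2 gave 1 higher and 2 lower. With edgeR, as with DESeq2, 0 of 5 epithelial and 0 of 5 endothelial genes passed; at an unadjusted p under 0.05, 1 of each list was lower.

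The likeness of other genes to 3 gate genes was measured as the root-mean-square difference of centred log2 CPM over the 5 libraries, among 10019 genes with a mean log2 CPM of at least 3. With 5 libraries many genes match by number alone. Closest to Adgre1 were Emilin2, Ephb4 and Tgfbi, with differences of 0.0367, 0.038 and 0.0407; Emilin2 had 40.1 and 40.7 CPM in Treg-ablated libraries and 63.2 to 65.7 CPM in controls. Closest to Ptprc were Zbtb10, Crim1 and Hivep2 (0.0381, 0.0396 and 0.0403). Closest to Itgam were Rnf135, Suox and Trp53rka (0.0258, 0.0376 and 0.0378).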
